A study of Mus musculus with 12 samples.

Results

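Hippocampal RNA from C57BL/6 mice given 10 µg of a small interfering RNA (siRNA) against Hdac4 through the nose was compared with that of mice given a scrambled siRNA by the same route. All animals were killed after 3 days. There were 4 libraries labelled siHdac4 and 4 labelled siScramble, and 4 further libraries labelled siBdnf, from mice given an siRNA against Bdnf, were used only where they are named. No library came from untreated animals, so every group shares the intranasal dose of an siRNA. Whether the libraries of a group came from separate animals is not stated in the labels, and p-values here therefore describe spread among libraries that may be technical in part. The genes compared were the protein-coding loci whose mean over the 8 libraries reached 1 FPKM (fragments per kilobase of transcript, scaled to library size) and that were above 0 somewhere in each group. They numbered 11076 of 22306 loci in the tables, of which 12218 were protein-coding.

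HDAC4 is a class IIa histone deacetylase that is abundant in brain. Class IIa deacetylases have weak catalytic activity of their own and act largely by binding MEF2 transcription factors and recruiting corepressor complexes. Calcium-dependent kinases of the CaMK family phosphorylate them, which leads to 14-3-3 binding and export from the nucleus. An siRNA loaded into Argonaute directs the cleavage of a matching transcript, so the transcript of the targeted gene is the usual readout of a knockdown.

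The tables hold no read totals. The most frequent ratio between a pair of libraries, at loci below 1 FPKM in both, was taken as the relative worth of 1 read. Relative to siScramble library 1 this ratio ran from 0.956 in siHdac4 library 1 to 1.14 in siHdac4 library 2. It ran from 1.05 to 1.31 in the other siScramble libraries. This is a relative depth only if the libraries were scaled alike. Markers of the hippocampus were present in both groups. Prox1, which marks dentate granule cells, ran from 8.53 to 10.9 FPKM in siHdac4 and from 8.74 to 11.2 FPKM in siScramble. Fibcd1, a marker of CA1 pyramidal cells, ran from 10.9 to 11.5 FPKM in siHdac4 and from 9.94 to 12.1 FPKM in siScramble. In bulk tissue, fewer cells of a type and less RNA per cell cannot be told apart.

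By distance, 1 siScramble library stood with the siHdac4 libraries. The median absolute difference between a pair of libraries, on the log2(FPKM + 1) scale, was 0.116 to 0.153 for the 6 pairs of siHdac4 libraries, 0.115 to 0.211 for the 16 pairs across the groups and 0.140 to 0.191 for the 6 pairs of siScramble libraries. siScramble library 1 lay at 0.115 to 0.134 from the siHdac4 libraries and at 0.163 to 0.191 from the other siScramble libraries. It was thus nearer to each siHdac4 library than to any library of its own group. The median SD of a gene was 0.120 in siHdac4 and 0.156 in siScramble, and 7319 genes had the larger SD in siScramble.

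**Figure D1:**
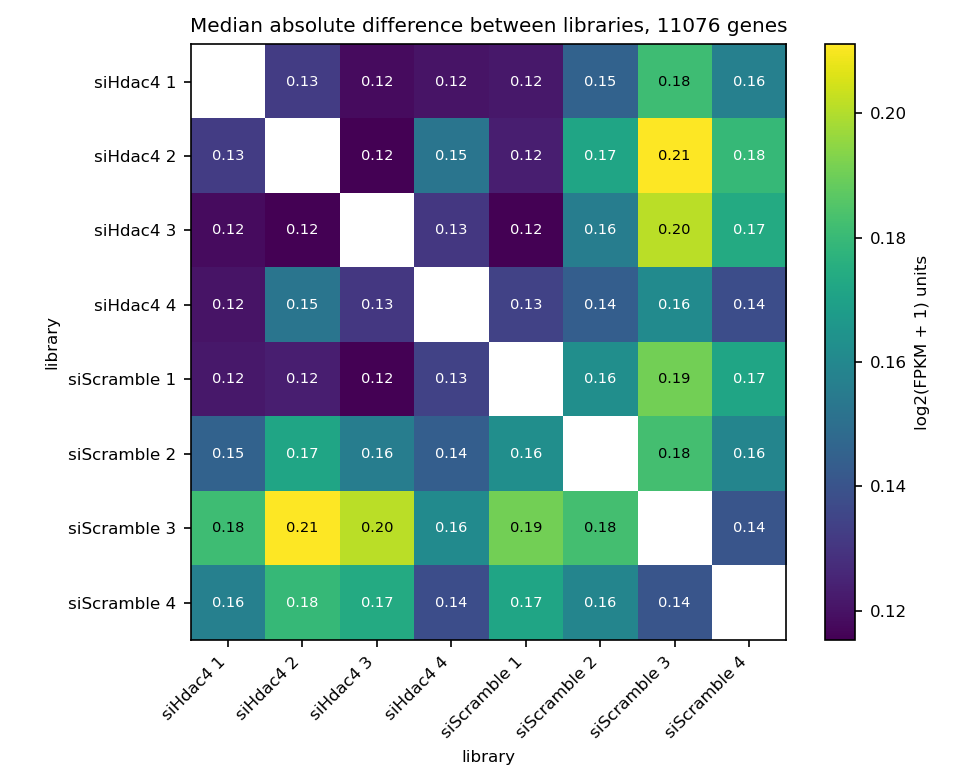
Median absolute difference of log2(FPKM + 1) over the 11076 genes for each pair of the 8 libraries, siHdac4 first and siScramble after it on both axes. siScramble 1 shares the low values of the siHdac4 block, and siScramble 3 is the farthest from the siHdac4 libraries, at up to 0.21.

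The first question was whether the targeted transcript was lower. Hdac4 was at 33.96, 48.2, 39.6 and 42.3 FPKM in the libraries labelled siHdac4 and at 45.9, 31.5, 40.6 and 38.6 FPKM in those labelled siScramble. The groups overlapped fully, with the lowest value of all in siScramble library 2. The means were 41.0 ± 5.93 FPKM in siHdac4 and 39.1 ± 5.94 FPKM in siScramble (SD, n = 4 each). The log2 fold change was 0.07 (95% interval −0.22 to 0.36; adjusted p = 0.880 in limma; two-sided exact permutation p = 0.657), and leaving out 1 library at a time moved it between −0.03 and 0.15. Transcript level therefore did not check the siHdac4 label, and the groups are called by their labels throughout. Bdnf, which encodes a neurotrophin, was at 5.94, 6.46, 5.38 and 5.15 FPKM in siHdac4 and at 5.33, 5.51, 5.14 and 5.50 FPKM in siScramble (log2 fold change 0.08, adjusted p = 0.783 in limma).

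Across all genes the difference between the groups was small. No gene passed a limma adjusted p of 0.05 (0 of 11076, 0%), and the smallest adjusted p was 0.261. At an unadjusted p below 0.05 there were 416 genes higher in siHdac4 (3.76%) and 468 lower (4.23%). The 4 siHdac4 values lay above all 4 siScramble values at 233 genes (2.1%) and below them at 227 (2.05%). The log2 fold change was above 0 at 5596 genes and below 0 at 5480, with a median of 0.002 and a median absolute size of 0.094. It exceeded 0.5 at 95 genes and lay below −0.5 at 170. With 4 against 4 libraries the exact permutation test cannot go below 0.0286, so for single genes it is given only as a description of overlap.

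Which genes stood lowest in p also depended on the libraries included. siScramble library 1 was the siScramble library nearest to the siHdac4 mean at 250 of the 416 higher genes and at 247 of the 468 lower genes. It was also the nearest over all genes, at 0.115 to 0.134 from the siHdac4 libraries, against 0.138 to 0.211 for the other siScramble libraries. The share of all genes at which it was nearest was not counted, so these counts show no trait of the genes of small p. With 1 library left out at a time, 189 to 355 of the 416 and 230 to 385 of the 468 kept an unadjusted p below 0.05, the fewest without siHdac4 library 3 for the higher genes and without siScramble library 3 for the lower genes. The counts at that p were 874 higher and 869 lower without siScramble library 1. Without siScramble libraries 3 and 4, which leaves a pair of siScramble libraries, 123 of the 416 and 117 of the 468 kept an unadjusted p below 0.05. Without siScramble libraries 1 and 3, 275 and 265 kept it.

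The smallest p belonged to Polr2f, which encodes a small subunit shared by RNA polymerases I, II and III. It was at 69.7, 53.2, 82.7 and 68.0 FPKM in siHdac4 and at 34.4, 32.9, 38.4 and 35.4 FPKM in siScramble. Every siHdac4 library lay above every siScramble library, and the log2 fold change was 0.92 (95% interval 0.65 to 1.19; limma adjusted p = 0.261). In siBdnf it averaged 41.4 ± 9.62 FPKM (SD, n = 4). Hfe, which encodes an MHC class I-like protein that regulates iron uptake, was at 1.14, 0.656, 1.12 and 1.03 FPKM in siHdac4 and at 1.96, 1.81, 2.46 and 2.15 FPKM in siScramble. Its groups did not overlap, and the log2 fold change was −0.64 (95% interval −0.92 to −0.36; limma adjusted p = 0.606). Lgals3bp encodes a secreted glycoprotein that binds galectins and is induced by interferon. It was at 1.64, 1.48, 1.81 and 1.48 FPKM in siHdac4 and at 4.13, 3.41, 3.81 and 2.49 FPKM in siScramble. Its log2 fold change was −0.76 (95% interval −1.06 to −0.47; limma adjusted p = 0.606), again without overlap. These genes were picked by small p in the same libraries, so the lack of overlap adds no support.

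These 3 genes passed in another setting, chosen after the data were seen. With all 12 libraries in the fit, loci of every type tested and loci listed at 0 kept, 48 of 18371 loci passed an adjusted p of 0.05. Of these, 41 were listed at 0 through a group, 40 carried the name Celf2, and 4 belonged to the genes tested here. The limma adjusted p was then 0.0115 for Hfe, 0.0289 for Lgals3bp and 0.0392 for Polr2f. The fourth was Ikzf4, a zinc-finger transcription factor, with an adjusted p of 0.0436. The count was 0 with all 12 libraries alone, 0 with loci of every type alone and 1 with loci listed at 0 kept alone. Loci at 0 through a group entered the same adjustment, so the adjusted p-values of these 4 genes depend in part on them. Such a 0 may be a failed estimate, as for Celf2 below.

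The promoters of the 3 genes, from RefSeq on GRCm38.p6 and matched by symbol, are shown because these genes passed in the setting above. In the main fit Tnni1, described below, had a smaller limma p than Hfe and Lgals3bp. Each runs from 250 bases before the annotated start to 50 after it, with the bases from the start on in capitals. Polr2f lies at chr15:79141075-79141374 on the plus strand, Hfe at chr13:23710805-23711104 on the minus strand and Lgals3bp at chr11:118401910-118402209 on the minus strand.
Polr2f: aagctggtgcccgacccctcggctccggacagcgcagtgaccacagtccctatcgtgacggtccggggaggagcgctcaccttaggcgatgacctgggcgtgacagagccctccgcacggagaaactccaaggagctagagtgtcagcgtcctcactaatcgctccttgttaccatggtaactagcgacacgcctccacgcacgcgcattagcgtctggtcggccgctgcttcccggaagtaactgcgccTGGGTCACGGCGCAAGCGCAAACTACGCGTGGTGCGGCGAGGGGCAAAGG
Hfe: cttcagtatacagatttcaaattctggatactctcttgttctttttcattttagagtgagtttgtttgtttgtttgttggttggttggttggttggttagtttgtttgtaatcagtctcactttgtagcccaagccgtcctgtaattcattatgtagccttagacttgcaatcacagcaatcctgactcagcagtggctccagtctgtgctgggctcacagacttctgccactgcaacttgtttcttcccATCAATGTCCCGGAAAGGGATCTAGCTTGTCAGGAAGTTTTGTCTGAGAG
Lgals3bp: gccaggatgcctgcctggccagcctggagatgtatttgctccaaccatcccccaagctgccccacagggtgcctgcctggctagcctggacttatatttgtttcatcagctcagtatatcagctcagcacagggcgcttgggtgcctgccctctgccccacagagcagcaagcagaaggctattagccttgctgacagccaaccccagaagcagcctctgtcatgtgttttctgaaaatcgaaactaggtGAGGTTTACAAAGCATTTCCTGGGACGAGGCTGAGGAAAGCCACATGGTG
GC content was 63.7% in the Polr2f promoter, 42.7% in that of Hfe and 55.0% in that of Lgals3bp, and CG dinucleotides numbered 31, 2 and 3 in that order. None of the 3 windows held the letters GAAANNGAAA, the core of the interferon-stimulated response element, on either strand. Only exact matches of this string were counted, so variants of the element were not sought. The Lgals3bp window holds aaaatcgaaa shortly before the start, which differs from the string only in its first letter. Whether that stretch acts as such an element was not tested. Counted by gene, that string occurred in a promoter of 3.99% of the 27025 genes in the table, 3.34% of the 8155 genes tested that had one and 41.2% of the 34 interferon-stimulated genes tested that had one (14 genes).

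Other genes of small p with values higher in siHdac4 were of varied function. Tnni1, slow skeletal troponin I, was at 2.46, 2.43, 2.10 and 2.89 FPKM in siHdac4 and at 1.14, 0.920, 0.8285 and 1.22 FPKM in siScramble (log2 fold change 0.78; limma adjusted p = 0.407). Hn1 was at 37.8, 40.3, 40.6 and 34.4 FPKM in siHdac4 and at 33.4, 23.4, 26.1 and 20.9 FPKM in siScramble, a log2 fold change of 0.56. siScramble library 1 lay close to the siHdac4 range there. Log2 fold changes were 0.47 for Prkrip1, 0.48 for Rnf219, 0.31 for Dok4, a docking protein of receptor tyrosine kinases, and 0.43 for Eif2s3x, the X-linked gamma subunit of the initiation factor eIF2. They were 0.43 for Ift22, an intraflagellar transport protein, 0.31 for Rorb, an orphan nuclear receptor, 0.65 for Fam71e1 and 0.79 for Tstd2, whose locus overlaps other genes. All of these had a limma adjusted p of 0.606. The locus listed as Mcmdc2,Snhg6 carries a pair of gene names and had a log2 fold change of 0.56. The Dok4 locus overlaps that of Polr2c.

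Among genes of small p with lower values, Fam126a, which encodes hyccin, was at 10.1, 10.3, 6.79 and 13.1 FPKM in siHdac4 and at 16.1, 16.7, 24.4 and 28.3 FPKM in siScramble. The log2 fold change was −1.01 (95% interval −1.49 to −0.52; limma adjusted p = 0.606). In siBdnf Fam126a was at 7.08, 18.8, 7.65 and 6.57 FPKM, with library 2 inside the siScramble range. Myrf, the transcription factor that drives myelin genes, was at 4.51, 4.46, 6.15 and 4.92 FPKM in siHdac4 and at 6.75, 7.38, 10.1 and 8.16 FPKM in siScramble, a log2 fold change of −0.59. Cit, citron kinase, and Nkain3, a membrane protein that interacts with the sodium pump, each had a log2 fold change of −0.42. It was −0.68 for Arid5a, an RNA-binding protein, −0.33 for the scaffold gene Dlg5, −0.43 for Ccdc6, −0.46 for Brpf3, −0.47 for Rtn4rl2, a Nogo receptor homologue, and −1.17 for the aminopeptidase gene Npepl1. All had groups that did not overlap and a limma adjusted p of 0.606. They were picked by smallest p in the same libraries, so the lack of overlap follows largely from that choice. The Myrf locus overlaps that of Tmem258.

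**Figure D2:**
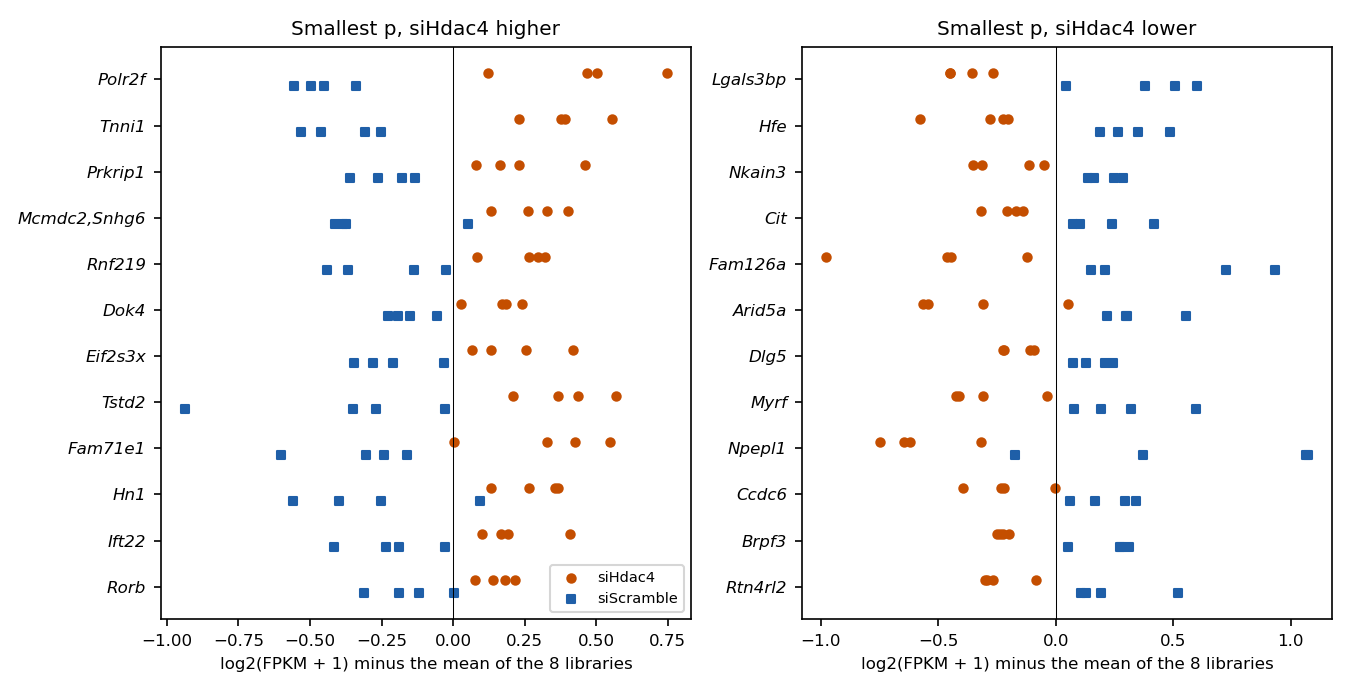
log2(FPKM + 1) of each library minus the mean of the 8 libraries, for the 12 genes of smallest p higher in siHdac4 (left) and the 12 lower (right), with siHdac4 as circles above siScramble as squares. The groups are separate in every row, which follows largely from the choice by smallest p in these libraries. For Hn1 and Mcmdc2,Snhg6 1 siScramble library lies close to the siHdac4 values.

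**Figure D3:**
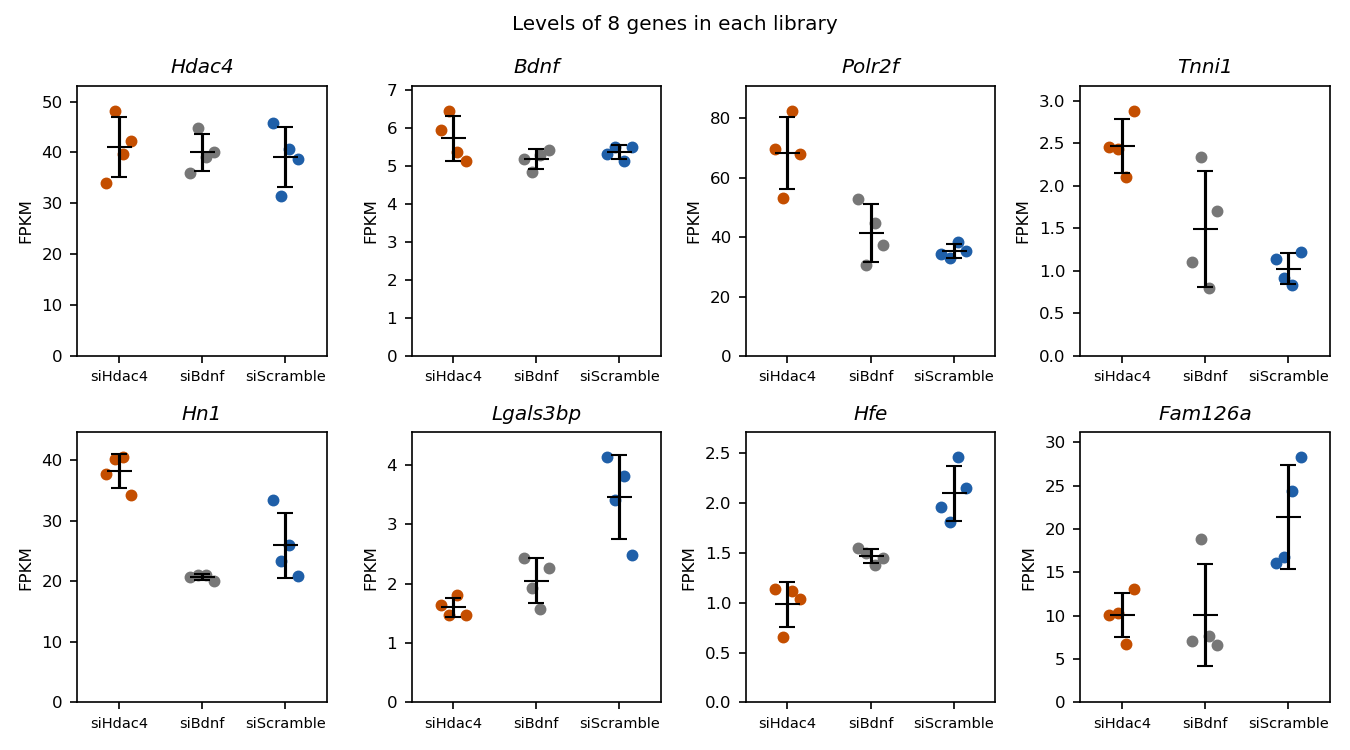
FPKM of 8 genes in each library of siHdac4, siBdnf and siScramble, with the mean and SD of 4 libraries as a bar. Hdac4 and Bdnf overlap across all 3 groups, whereas Polr2f, Tnni1, Lgals3bp, Hfe and Fam126a, picked by small p in these libraries, are separate between siHdac4 and siScramble.

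The largest differences among genes without overlap rested on 1 library to unequal degrees. Helz, an RNA helicase gene, was at 19.1, 18.8, 16.1 and 20.2 FPKM in siHdac4 and at 606, 20.3, 22.2 and 22.9 FPKM in siScramble. Its log2 fold change was −1.41, and −0.23 without siScramble library 1. Drc7, a subunit of the axonemal dynein regulatory complex, had a log2 fold change of −1.31, which ran from −1.62 to −0.78 with 1 library left out and was −0.44 without siScramble libraries 1 and 3. Gba2, a glucosylceramidase, was at 9.23, 6.17, 6.01 and 7.72 FPKM in siHdac4 and at 12.9, 25.9, 18.3 and 9.79 FPKM in siScramble (log2 fold change −1.03, and −1.24 to −0.80 with 1 library left out). Tfb1m, a mitochondrial ribosomal RNA methyltransferase, had a log2 fold change of −1.15, and −1.34 to −0.94 with 1 library left out. Rps21, a ribosomal protein, was at 385, 377, 444 and 385 FPKM in siHdac4 and at 359, 114, 295 and 301 FPKM in siScramble. siScramble library 2 was low, and the log2 fold change of 0.69 was 0.32 without it. Rnf17 had one of 0.65, and 0.47 to 0.75 with 1 library left out. The loci of Gba2, Tfb1m and Rps21 overlap those of other genes. Rpl22l1, a paralogue of Rpl22 whose groups did overlap, was at 38.0, 58.7, 45.5 and 4.24 FPKM in siHdac4 and at 5.94, 3.65, 1.997 and 1.67 FPKM in siScramble. siHdac4 library 4 lay inside the siScramble range, and the log2 fold change of 2.77 had a 95% interval of 1.20 to 4.35 (limma adjusted p = 0.606). Without siHdac4 library 4 it was 3.57, with a limma adjusted p of 0.0306.

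In the authors' deposited table, 24 of the genes tested were higher in siHdac4 (0.217%) and 91 lower (0.822%) at an FDR below 0.05. Of these 115 calls, 44 had an unadjusted limma p below 0.05 and 14 had groups that did not overlap. At 71 of the 91 lower calls the highest of the 8 libraries was siScramble library 3, and at 6 it was siScramble library 1. Over all genes siScramble library 3 was also the farthest from the siHdac4 libraries, at 0.161 to 0.211. The share of all genes at which it was highest was not counted, so these counts show no trait of the calls. Several higher calls in the authors' deposited table rested on 1 or a pair of libraries. Wtap, a component of the RNA methyltransferase complex, was at 2.36, 19.1, 2.05 and 47.8 FPKM in siHdac4 and at 1.29, 2.91, 2.19 and 1.94 FPKM in siScramble. Fgf10, a fibroblast growth factor, was at 12.2 FPKM in siHdac4 library 2 and at 1.80 to 1.89 FPKM in the other siHdac4 libraries, against 1.79 to 1.98 FPKM in siScramble. Nup107, a nuclear pore protein, was at 69.8 FPKM in siHdac4 library 4 and at 10.1 to 14.8 FPKM in the others, against 11.4 to 13.8 FPKM in siScramble. Eng, an endothelial co-receptor for TGF-beta, stood out in siHdac4 library 1 (11.02 FPKM), Cln3, a lysosomal membrane protein, in library 3 (8.02 FPKM), and Idua, a lysosomal hydrolase, in libraries 3 and 4 (9.27 and 9.39 FPKM). Disp1 was higher in 3 siHdac4 libraries, at 11.9, 11.96 and 8.26 FPKM, but was at 2.06 FPKM in library 3. The Idua locus overlaps that of Slc26a1.

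The lower calls of the authors' deposited table were led by genes of the choroid plexus, the epithelium that secretes cerebrospinal fluid into the ventricles next to the hippocampus. Of 22 choroid plexus genes tested, 0 lay above 0, 0 had an unadjusted limma p below 0.05 and 19 were called lower in the authors' deposited table. Of all genes tested, 4.23% were lower at that p and 0.822% were called lower in the authors' deposited table. The mean log2(FPKM + 1) of the list was 1.70, 1.65, 1.90 and 1.53 in siHdac4 and 3.22, 1.78, 4.53 and 1.60 in siScramble. siScramble libraries 1 and 3 were high, and the other 6 libraries lay between 1.53 and 1.90. Ttr, the thyroxine carrier that defines this epithelium, was at 25.0, 35.2, 63.3 and 7.91 FPKM in siHdac4 and at 810, 17.9, 1977 and 9.99 FPKM in siScramble. Kcne2, a potassium channel subunit, was at 0.187, 0.223, 0.355 and 0.0693 FPKM in siHdac4 and at 8.22, 0.298, 17.3 and 0.139 FPKM in siScramble. The same pair of siScramble libraries was high for Folr1, the folate receptor, Clic6, F5, Tmem72, Cldn2, Prr32, Otx2, Prlr and Kl. The median log2 fold change of the list was −1.06, and −0.045 without siScramble libraries 1 and 3. No defining marker was at 0 throughout. Kcne2, Tmem72, Cldn2 and Otx2 were below 1 FPKM in every siHdac4 library and passed the filter only through siScramble. The direction of such genes was largely set by the filter. The counts and the median of this list were therefore partly fixed in advance and are given as description only.

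Motile cilia and ependyma genes had 6 of 37 values above 0 and a median of −0.26, with 0 higher and 10 lower at an unadjusted p below 0.05, where 4.23% of all genes were lower. Iqub was at 4.68, 5.32, 5.98 and 5.10 FPKM in siHdac4 and at 7.77, 9.26, 18.8 and 8.58 FPKM in siScramble (log2 fold change −0.87). Foxj1, the transcription factor of motile ciliogenesis, had a log2 fold change of −0.67, as did the dynein light chain Dynlrb2, and it was −0.78 for Ak7 and −0.41 for Cfap52. The median of the list was −0.12 without siScramble libraries 1 and 3. The choroid plexus level given above moved with it in siScramble library 3, and its part in the result was not tested. Among meningeal and fibroblast genes, 9 of 27 lay above 0 (median −0.09). Slc13a4 and Igf2 were again highest in siScramble library 3, at 25.7 and 38.2 FPKM, Cemip had a log2 fold change of −0.39, and the collagen Col1a1 and the proteoglycan Dcn had 0.23 and −0.01.

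**Figure D4:**
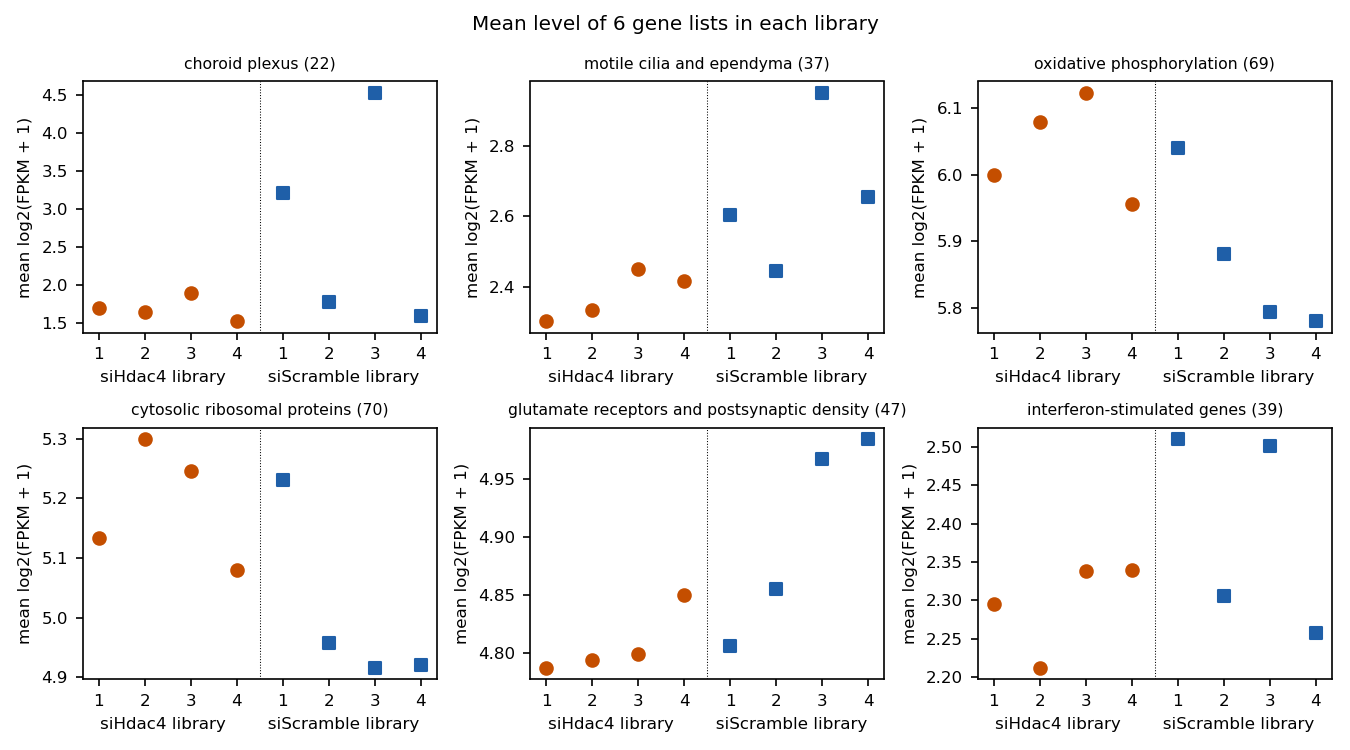
Mean log2(FPKM + 1) of 6 gene lists in each library, siHdac4 left and siScramble right, with the number of genes tested in brackets. The choroid plexus list is high in siScramble 1 and 3, and for oxidative phosphorylation and cytosolic ribosomal proteins siScramble 1 lies within the siHdac4 range.

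Genes of the HDAC4 pathway showed no common direction. Of 35 class IIa deacetylases, MEF2 factors and their kinases tested, 15 lay above 0 (median −0.04). At an unadjusted p below 0.05, 1 was higher and 2 were lower, beside 3.76% and 4.23% of all genes. Mef2c, a MEF2 factor of excitatory neurons, had a log2 fold change of 0.13. Camk2a, a calcium-dependent kinase abundant at synapses, was at 103, 87.8, 88.9 and 106 FPKM in siHdac4 and at 97.7, 119, 180 and 155 FPKM in siScramble. Its log2 fold change was −0.48 (limma adjusted p = 0.606), and −0.17 without siScramble libraries 3 and 4. It was −0.27 for Camk2b, 0.27 for Camk1 and −0.18 for the corepressor subunit Tbl1x. Of 14 genes listed as MEF2 targets, 9 lay above 0 (median 0.06), with 0 higher and 1 lower at an unadjusted p below 0.05. Without siScramble libraries 3 and 4 the median was −0.007, with 7 of 14 above 0, and siScramble library 4 was the lowest of the 8 for this list. The nuclear receptor Nr4a1 had a log2 fold change of 0.09, the zinc-finger factor Klf2 0.18 and Jun −0.15.

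Activity-regulated genes, which neurons induce on firing, had 26 of 36 values above 0 (median 0.08). At an unadjusted p below 0.05, 1 was higher and 1 was lower, beside 3.76% and 4.23% of all genes. The direction of the list turned without siScramble libraries 3 and 4, where 13 of 36 lay above 0 and the median was −0.04. Arc, a regulator of synaptic receptor trafficking, was at 26.5, 22.98, 30.3 and 32.8 FPKM in siHdac4 and at 29.0, 30.3, 19.2 and 15.02 FPKM in siScramble. Fos was at 5.99, 5.35, 6.70 and 6.95 FPKM in siHdac4 and at 8.14, 5.27, 3.73 and 1.80 FPKM in siScramble. For both genes siScramble libraries 3 and 4 were low, and without them the log2 fold changes were −0.08 for Arc and −0.07 for Fos, against 0.30 and 0.46 with them. Dusp5 and Dusp6, phosphatases of the ERK kinases, had 0.39 and 0.27, Nr4a3 −0.26 and Plk3 −0.27.

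Of 47 glutamate receptor and postsynaptic density genes, 13 lay above 0 (median −0.06), with 1 higher and 4 lower at an unadjusted p below 0.05, beside 3.76% and 4.23% of all genes. The median deviation of the list from the mean of the 8 libraries was 0.084 and 0.12 on the log2 scale in siScramble libraries 3 and 4, and −0.043 to 0.008 in the other 6. Without that pair the median log2 fold change was −0.02, with 19 of 47 above 0. The kainate receptor subunit Grik5 was at 8.07, 7.77, 7.503 and 16.02 FPKM in siHdac4 and at 11.3, 16.02, 27.6 and 26.1 FPKM in siScramble, a log2 fold change of −0.96 and one of −0.48 without siScramble libraries 3 and 4. Grik3, another kainate subunit, had −0.59, and the NMDA receptor subunit Grin2c had 0.23. The major subunits Gria1 and Grin1 had −0.06 and −0.07. Of 47 presynaptic genes, 24 lay above 0 (median 0.00), with 1 higher and 8 lower at an unadjusted p below 0.05, beside 3.76% and 4.23% of all genes. Syt7, a calcium sensor of release, was at 23.8, 24.7, 24.5 and 27.2 FPKM in siHdac4 and at 27.5, 32.3, 29.97 and 34.7 FPKM in siScramble, without overlap (log2 fold change −0.30). The vesicle SNARE Vamp2 had −0.31, the synapsin Syn1 −0.33, the active zone scaffold Pclo −0.25, the complexin Cplx2 −0.20 and synaptophysin, Syp, −0.06. Without siScramble libraries 3 and 4 the log2 fold change was −0.12 for Vamp2, −0.23 for Syn1, −0.10 for Pclo and −0.24 for Syt7.

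Dentate granule cell genes had 8 of 21 values above 0 (median −0.06), with 0 higher and 1 lower at an unadjusted p below 0.05. Of all genes, 3.76% were higher and 4.23% lower at that p. CA1 pyramidal genes had 10 of 16 (median 0.05; 2 higher, 1 lower) and CA2 and CA3 genes 7 of 19 (median −0.03; 0 higher, 2 lower). Ablim3, of the dentate list, had a log2 fold change of −0.47, Tdo2 −1.02, Pdzd2 −0.29, Prox1 −0.05 and Dsp −0.17. In CA1, Lefty1 had 0.35, Etv1 0.23, Wfs1 −0.29, Lrrtm1 0.14 and Fibcd1 0.02. Of the CA2 and CA3 list, Plagl1 had −0.41, Prkcd −0.33, Amigo2 −0.15 and Bok 0.23. Astrocyte genes had 18 of 29 values above 0, with 0 at an unadjusted p below 0.05. Gfap, their intermediate filament, had −0.05 and Aqp4, their water channel, 0.13, where siScramble library 3 was at 28.9 FPKM. Etnppl had −0.47, Ntsr2 −0.25, Acsbg1 0.15 and Slc25a18 0.21. Of 31 oligodendrocyte and myelin genes, 17 lay above 0 (median 0.01; 0 higher, 1 lower at an unadjusted p below 0.05). Mbp, myelin basic protein, had −0.24, Bcas1 −0.22 and Ppp1r14a 0.35. Of 26 microglia and macrophage genes, 11 lay above 0 and 15 below (median −0.04; 2 higher, 1 lower at an unadjusted p below 0.05). Cx3cr1 had 0.00, P2ry12 0.38, Tmem119 0.27, Gpr34 0.46 and Ptprc, which encodes CD45, −0.46. Of 28 endothelial and mural genes, 12 lay above 0 (median −0.04; 0 higher, 3 lower at an unadjusted p below 0.05). The pericyte receptor Pdgfrb had −0.24, the lipid transporter Mfsd2a −0.57 and smooth muscle actin, Acta2, −0.35. Eng had 0.71, with a high value in 1 siHdac4 library. Members of each list were named partly by small p and do not stand for the list.

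Genes that sense or process small RNA are of interest where an siRNA was given. Of 30 tested, 10 lay above 0 (median −0.09). At an unadjusted p below 0.05, 0 were higher and 2 lower, beside 3.76% and 4.23% of all genes. Drosha, the nuclear microRNA-processing enzyme, was at 15.03, 16.5, 15.98 and 15.4 FPKM in siHdac4 and at 17.7, 17.0, 23.2 and 20.4 FPKM in siScramble (log2 fold change −0.29; limma adjusted p = 0.606). Ago2, the Argonaute that cuts siRNA targets, had −0.24, the siRNA-producing enzyme Dicer1 −0.28, Tnrc6b −0.22, the innate immune kinase Tbk1 −0.27 and the exonuclease Eri1 0.29. Interferon-stimulated genes had 12 of 39 values above 0 (median −0.11), with 0 higher and 1 lower at an unadjusted p below 0.05. Their mean level was highest in siScramble libraries 1 and 3, and the median was 0.05 without them. Beside Lgals3bp, Slfn5 had −0.29, Parp14 −0.26 and Gbp5 −0.64. Of 31 iron-handling genes, 14 lay above 0 (median −0.002), with 0 higher and 4 lower at an unadjusted p below 0.05, where 4.23% of all genes were lower. Hfe was among the lower genes. The log2 fold change was −0.19 for the iron regulatory protein gene Ireb2, −0.33 and −0.25 for the iron chaperone genes Pcbp1 and Pcbp2, and 0.00 for the transferrin receptor gene Tfrc.

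Genes of respiration and protein synthesis mostly lay above 0, beside 5596 of 11076 among all genes tested, of which 3.76% were higher at an unadjusted p below 0.05. Of 69 oxidative phosphorylation genes, 56 lay above 0 (median 0.15), with 14 higher and 0 lower at an unadjusted p below 0.05. Cox6b1, a subunit of complex IV, was at 541, 579, 621 and 452 FPKM in siHdac4 and at 534, 400, 361 and 350 FPKM in siScramble. siScramble library 1 lay within the siHdac4 range, and the log2 fold change was 0.43 (limma adjusted p = 0.606). Atp5c1 of ATP synthase had 0.26, Ndufs1 and Ndufa1 of complex I 0.15 and 0.24, and Uqcrc2 of complex III 0.16. Of 70 cytosolic ribosomal protein genes, 55 lay above 0 (median 0.15; 7 higher, 0 lower), among them Rpl35 at 0.46, Rps19 at 0.32 and Rpl32 at 0.29. Of 62 mitochondrial ribosomal protein genes, 51 lay above 0 (median 0.10; 6 higher, 0 lower), with Mrps12 at 0.34, Mrpl57 at 0.21, Mrpl36 at 0.19, Mrpl10 at 0.31 and Mrps22 at 0.25. Proteasome genes had 32 of 36 above 0 (median 0.12; 3 higher, 0 lower), with Psmb1 at 0.35, Psma4 at 0.22, Psmb2 at 0.25, Psmb7 at 0.24 and Psmb10 at 0.24. RNA polymerase subunits had 22 of 26 above 0 (median 0.10; 2 higher, 1 lower). Beside Polr2f, Polr1d had 0.21 and the largest subunit of polymerase II, Polr2a, −0.43. Without siScramble libraries 3 and 4 the medians were 0.08, 0.08, 0.04, 0.05 and 0.06 for these 5 lists in the order given.

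**Figure D5:**
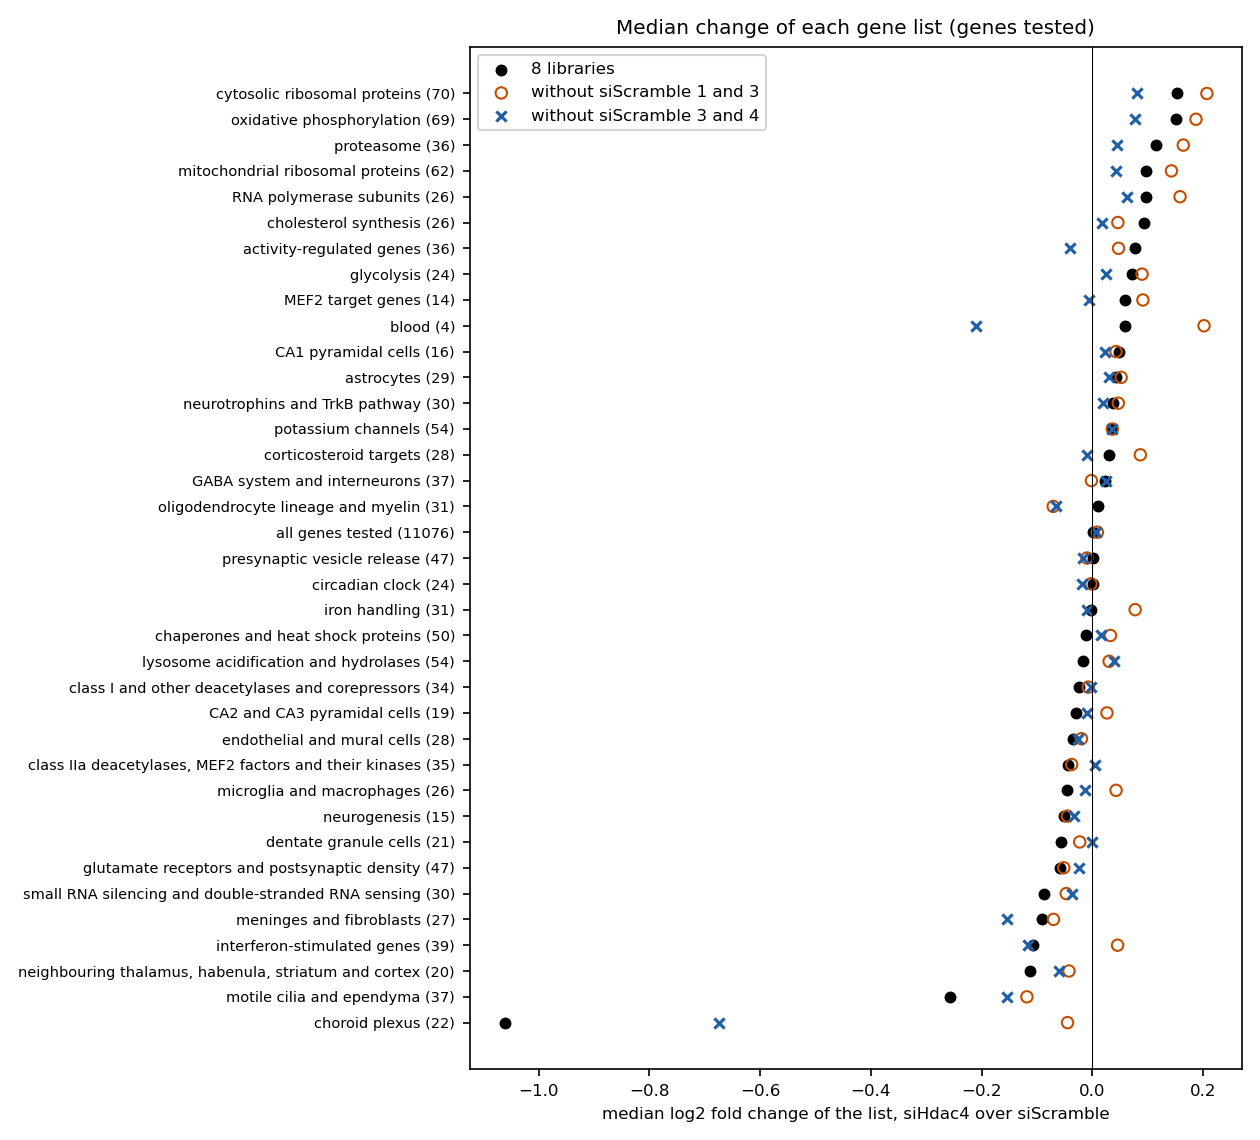
Median log2 fold change (siHdac4 over siScramble) of each gene list with the number of genes tested, from all 8 libraries (filled), without siScramble 1 and 3 (open) and without siScramble 3 and 4 (crosses). The choroid plexus list moves from −1.06 to −0.045 when siScramble 1 and 3 are left out, and the lists of respiration and ribosomes stay above 0.

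The difference also followed transcript length. In 4 bins of equal size over the 10392 genes with an annotated transcript length (93.8%), short to long, the median log2 fold change was 0.037, 0.016, −0.0016 and −0.036. Without siScramble libraries 3 and 4 it was 0.01 in the bin of shortest genes and −0.002 in that of the longest. Median transcript length was 1129 bases for the oxidative phosphorylation genes, 1114.5 for cytosolic ribosomal proteins, 2257 for mitochondrial ribosomal proteins, 1561 for the proteasome and 2696 for RNA polymerase subunits, against 3581.5 over all genes with a length. It was 5546 bases for the glutamate receptor and postsynaptic list, whose median lay below 0, and 2510 for motile cilia genes, which lay below 0 as well. The part of length in the list medians was not tested.

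Clock genes had 12 of 24 values above 0. At an unadjusted p below 0.05, 1 was higher and 3 were lower, beside 3.76% and 4.23% of all genes. Per1 had a log2 fold change of 0.07, the repressor Nr1d1 −0.38 and Hlf −0.33. Across all 36 lists, no median other than those of choroid plexus and motile cilia lay beyond 0.2 in either direction.

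Set directly against siBdnf, 3 genes passed a limma adjusted p of 0.05 (0.0271%), of which 1 was listed at 0 throughout siBdnf. Hn1 was at 37.8, 40.3, 40.6 and 34.4 FPKM in siHdac4 and at 20.7, 21.1, 21.1 and 20.0 FPKM in siBdnf, with a log2 fold change of 0.85 and an adjusted p of 0.0228 in limma. Sugct, a mitochondrial CoA transferase, was at 2.12, 3.11, 2.59 and 2.65 FPKM in siHdac4 and at 5.38, 4.63, 4.63 and 4.56 FPKM in siBdnf, with a log2 fold change of −0.69 and an adjusted p of 0.0228 in limma. Its siScramble values of 3.43 to 3.71 FPKM lay between those of the other groups. Neither call held throughout: with a replicate block the limma adjusted p was 0.0546 for Hn1 and 0.103 for Sugct, and each gene kept its call in 4 of 12 fits with 1 library left out. Hn1 lost it without any siHdac4 or siBdnf library, and Sugct without any siBdnf library, siHdac4 library 1, 3 or 4, or siScramble library 4, with limma adjusted p-values up to 0.129 for both genes. The third, the predicted gene Gm10800, was listed at 0 in all siBdnf libraries and at 5185 to 7551 FPKM in siHdac4. That 0 may be a failed estimate, and the locus is not counted as a difference here.

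A pair of protein-coding loci of at least 1 FPKM were left out because siHdac4 was listed at 0 throughout. Celf2, a splicing regulator of neurons, was listed at 0 in all 4 siHdac4 libraries and at 102, 91.8, 99.6 and 105 FPKM in siScramble, with a p of 1 in the authors' deposited table, so the 0 may be a failed estimate. Ccl12, a chemokine, was listed at 0 in siHdac4 and at 0.838, 0, 11.4 and 1.03 FPKM in siScramble.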

How the data were processed

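Per the labels' protocols, hippocampal RNA was extracted with TRIzol, selected for poly-A and made into directional libraries. Per the submitters' processing notes, TopHat2 2.0.9, Cufflinks and Cuffdiff were used, with a genome build and annotation not given in the sources used here. Deposited by the authors were FPKM values per library and locus, together with a log2 fold change, a p-value and an FDR (q-value) for each locus. Sentences that quote those comparison values say so. The scaling of FPKM between libraries was not stated there.

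Values of log2(FPKM + 1) from the 8 libraries were fitted with limma 3.58.1 (R 4.3.3), with an intensity trend in the prior variance and no covariates; no count model was used. P-values were adjusted by Benjamini-Hochberg over the 11076 genes, with a threshold of 0.05. The pseudocount of 1 makes fold changes of low genes too small. The contrast with siBdnf used all 12 libraries. Exact two-sided permutation tests used scipy 1.17.1; tables and plots used Python 3.11.15, pandas 2.3.3, numpy 2.4.6 and matplotlib 3.10.9. The fit was tested on simulated data. The most frequent ratio between libraries at low values gave the relative worth of a read. Depth limits precision beyond that in a way the tables do not show.

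The genes and the 36 gene lists were chosen with earlier results of these data known. Genes were named by rule: both targets, the 12 of smallest p in each direction, the 6 largest differences without overlap in each direction, up to 8 calls of the authors' deposited table in each direction, and the first 2 and the 4 members of smallest p of each of 24 lists. Predicted genes were passed over, 2 among those of smallest p, and some genes that the rule named are not reported here. Genes past the threshold against siBdnf, Ikzf4, Celf2 and Ccl12 were named after their values were seen. Alternatives were other pseudocounts, filters, scalings and locus types, all 12 libraries, a replicate block, library weights, other priors, another threshold and leaving out libraries.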

Additional observations from a re-analysis of the deposited data

Results flagged for a closer look

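Within a group of 4 libraries, 1 library stood apart from the other 3 by Dixon's criterion in 35 of 312 groups examined over the 156 named genes (11.2%). Chance alone flags about 1 group in 20, and genes that share a library are not independent. Many of these genes were named by their values in the same libraries, which favours such groups. The share therefore cannot be set against that rate. Libraries siHdac4 3 and siScramble 3 stood apart most often, in 8 and 9 groups.

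Each value is followed by that of the nearest library of its group. The high value of siHdac4 library 1 was 11.02 FPKM for Eng, next to 2.36. The high values of siHdac4 library 2 were 12.2 FPKM for Fgf10, next to 1.89, 1.997 FPKM for Klf2, next to 1.45 and 10.9 FPKM for Nr4a3, next to 8.52. Further high values of siHdac4 library 2 were 253 FPKM for Syp, next to 229 and 41.8 FPKM for Etv1, next to 33.97. The high values of siHdac4 library 3 were 444 FPKM for Rps21, next to 385, 8.02 FPKM for Cln3, next to 2.39 and 1.74 FPKM for Clic6, next to 0.866. Further high values of siHdac4 library 3 were 0.281 FPKM for Cldn2, next to 0.145, 7.29 FPKM for Bok, next to 6.46 and 7.05 FPKM for Psmb10, next to 5.59. Further high values of siHdac4 library 3 were 0.487 FPKM for Otx2, next to 0.273 and 3.49 FPKM for Dynlrb2, next to 2.17. The high values of siHdac4 library 4 were 4.89 FPKM for Rtn4rl2, next to 4.18, 69.8 FPKM for Nup107, next to 14.8 and 16.02 FPKM for Grik5, next to 8.07. A further high value of siHdac4 library 4 was 4.19 FPKM for Gbp5, next to 1.13. The high values of siScramble library 1 were 7.66 FPKM for Mcmdc2,Snhg6, next to 5.45 and 606 FPKM for Helz, next to 22.9. The low values of siScramble library 1 were 1.08 FPKM for Brpf3, next to 1.42 and 22.9 FPKM for Tbk1, next to 30.2. The high value of siScramble library 2 was 10.7 FPKM for Lrrtm1, next to 10.1. The low value of siScramble library 2 was 45.6 FPKM for Mef2c, next to 49.6. The high values of siScramble library 3 were 8.89 FPKM for Tmem72, next to 1.53, 88.2 FPKM for F5, next to 8.28 and 48.2 FPKM for Clic6, next to 8.57. Further high values of siScramble library 3 were 4.62 FPKM for Foxj1, next to 2.09, 18.8 FPKM for Iqub, next to 9.26 and 38.2 FPKM for Igf2, next to 12.8. The low values of siScramble library 3 were 20.3 FPKM for Dicer1, next to 33.4, 28.9 FPKM for Aqp4, next to 45.3 and 8.91 FPKM for Slc25a18, next to 13.1. The high values of siScramble library 4 were 4.17 FPKM for Idua, next to 3.11 and 14.9 FPKM for Ppp1r14a, next to 9.52.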

How the results depend on the processing

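The count of genes past an adjusted p of 0.05 between siHdac4 and siScramble stayed at 0 in all alternatives but those named here. It was 1 with loci listed at 0 kept and 48 with all 12 libraries, loci of every type and loci listed at 0 kept, where more loci at 0 through a group were tested. Leaving out 1 library at a time gave 0 to 1, the 1 being Polr2f without siHdac4 library 2 (log2 fold change 1.03, limma adjusted p = 0.0211) or Rpl22l1 without siHdac4 library 4. Beside the 416 higher and 468 lower genes at an unadjusted p below 0.05, the counts were 637 higher with all 12 libraries, 711 lower with loci of every type, 827 higher and 1027 lower in the added setting, 669 higher without siScramble 1 and 3, and 262 lower without siScramble 3 and 4. Leaving out 1 library gave 229 to 874 higher and 285 to 869 lower genes, the most without siScramble library 1 (874 and 869) and the fewest without siHdac4 library 3 for the higher genes and siScramble library 3 for the lower genes (229 and 285). Against siBdnf the count of 3 was 29 with library weights, 5 at a threshold of 0.1, 5 without siScramble 1 and 3, 24 without siScramble 3 and 4, and 1 to 5 with 1 library left out.

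The replicate numbers that the groups share do not pair the libraries: same-numbered libraries had correlations of their deviations of −0.048, 0.028, −0.025 and 0.11, and none was highest with its own number. With the replicate number as a block, the replicate block fit gave 0 genes between siHdac4 and siScramble, 341 higher and 456 lower genes at an unadjusted p below 0.05, and 1 gene against siBdnf.

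Hdac4 changed sign without siHdac4 library 2 and without siScramble library 2, and its log2 fold change ran from −0.031 to 0.15 with 1 library left out. Of 3709 gene values recomputed, 47 in 23 genes changed sign, none of them past an adjusted p, and the cause was not tested. With siScramble 1 and 3 left out, the log2 fold change was 0.024 for Tmem72, 0.91 for Ttr, 0.089 for Folr1, 0.024 for Prr32, 0.0020 for Prox1, 0.012 for Dsp, 0.049 for Gfap and −0.034 for Aqp4. With siScramble 3 and 4 left out, the log2 fold change was −0.13 for Nr4a1, −0.084 for Arc, −0.068 for Fos, −0.0031 for Dusp6, 0.071 for Syp, 0.049 for Prox1, −0.00087 for Fibcd1, −0.013 for Ndufa1, 0.051 for Tfrc, −0.047 for Per1, 0.018 for Dcn and −0.028 for Aqp4. Under median centring, the log2 fold change was 0.0078 for Tfrc and 0.0047 for Cx3cr1. Under quantile normalization, the log2 fold change was 0.0072 for Cx3cr1. With 1 library left out, the log2 fold change ran from −0.012 to 0.73 for Fgf10, −0.081 to 0.81 for Nup107, −0.024 to 0.17 for Nr4a1, −0.12 to 0.014 for Syp, −0.12 to 0.016 for Prox1, −0.023 to 0.065 for Fibcd1, −0.059 to 0.037 for Tfrc, −0.013 to 0.15 for Per1, −0.082 to 0.075 for Dcn, −0.11 to 0.0025 for Gfap, −0.027 to 0.19 for Aqp4, −0.051 to 0.039 for Cx3cr1 and −0.12 to 0.89 for Gm10800. Of 828 list medians recomputed, 20 moved by more than the spread of libraries. The number of reads behind each value is not part of the tables, so no counting interval can be given.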
